A study of Mus musculus with 4 samples.

Results

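The m6A writer complex genes Mettl3, Mettl14, Wtap, Virma, Zc3h13, Rbm15, Rbm15b and Cbll1 were examined as methylated transcripts, site by site. They were chosen by name, as every row of the 4 site tables listed under one of these symbols. They make up 8 of 20001 listed genes and 756 of 833043 distinct sites that the tables place in a gene. The samples were mouse retinal organoids at day 6, grown from an Rx:GFP line, a reporter line for the eye field gene Rx. In this line the endogenous Mettl3 gene carries a C-terminal FKBP12F36V-HA degron tag, and dTAG13 is a small molecule that brings proteins with this tag to the proteasome. The 2 groups of 2 libraries each were compared, organoids without dTAG13 (0 h) and organoids kept in 125 nM dTAG13 for 8 h, collected at the same time. All 4 libraries share the line, so no library is from cells without the degron. The genotype label names Mettl3, Mettl4, Mettl5 and Mettl6 in turn across the 4 libraries, whereas the design text and the growth protocol name Mettl3 for all of them. The labels do not say whether replicates were separate cultures, so a p-value here measures only the spread between these libraries, which may be technical.

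The writer complex adds N6-methyladenosine (m6A) to nascent mRNA in the nucleus. METTL3 is its catalytic subunit, and METTL14 is the partner that holds the RNA. WTAP ties this pair to a larger regulatory assembly, in which VIRMA is the scaffold, ZC3H13 helps to keep the complex in the nucleus, and CBLL1 (HAKAI) is a RING-type E3 ligase subunit. RBM15 and RBM15B are RNA-binding proteins that bring the complex to its targets. The transcripts of these genes can carry m6A themselves, and that is what was measured.

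The assay was GLORI, in which glyoxal and nitrite convert unmethylated adenosine to inosine, read as G, whereas m6A is still read as A. A site's level is its A reads as a percentage of all reads with A or G there. The tables list called sites only, with a minimum of 15 reads, of which 5 with A, and a minimum level of 10%. Among listed sites the highest adjusted p of the authors' per-site test was 0.0040 in each library. An unlisted position may thus lack m6A, lack coverage, fall short of a minimum or fail the authors' test. Per library 220034 to 350462 sites were listed, with a median of 75 to 91 reads per site. Intervals cover counting error only, since reads that copy 1 molecule may remain. All 11 retinal progenitor and eye field markers were listed in every library, with gene coverage summing to 5633 and 6704 in the untreated libraries against 3824 and 5609 after dTAG13. The 4 pluripotency markers were listed in every library too, with sums of 392 and 452 against 375 and 422. All marker sums use coverage as deposited, not divided by the library median. That median was 99.2 and 103.2 untreated against 82.4 and 110.9 treated, so depth and marker change are mixed in the sums. Of the 4 neuronal markers 2 to 4 were listed per library, of the 4 pigment epithelium markers 3 or 4, and of the 4 mesoderm and endoderm markers 1 to 3, with T listed in none. The sums of this last list were 158, 26.0, 29.3 and 120 in untreated replicates 1 and 2 and dTAG13 replicates 1 and 2. They rest on 3, 1, 1 and 2 listed markers in that order, since a gene without a listed site has no coverage value. The libraries are thus not compared over the same markers, and the part of this list in the results was not tested.

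The submitters' processing notes name the build mm10. All 158 Virma sites lie inside the RefSeq GRCm38 interval of their gene, but 0 of the 598 sites of the other 7 genes do. The build of the coordinates is therefore unsettled, positions are given as the tables list them, and exon, intron, UTR and surrounding sequence were not assigned.

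The untreated libraries listed 237 and 216 sites in the 8 genes together, and the treated libraries 179 and 193. The means were 226.5 ± 14.8 and 186 ± 9.90 sites (SD, n = 2), a ratio of 0.821, and the groups did not overlap. Over all genes the same ratio was 0.714. No single gene of the complex passed the test for a change in its number of sites.

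Mettl3, the catalytic subunit, had few sites, 10 and 15 untreated against 10 and 8 treated. Mettl14 had 19 and 13 against 7 and 15. In both genes of the catalytic pair the groups overlapped. Wtap had 11 and 18 against 10 and 11 sites, also with overlap. Virma, the scaffold, had the most even counts, 43 and 44 against 43 and 40. Zc3h13 had 21 and 18 untreated sites against 7 and 14 treated ones, so both treated libraries were lower. Cbll1 had 37 and 31 against 36 and 36 and was the only member with a higher mean after dTAG13. Rbm15 had 53, the highest count of any member, in untreated replicate 1, but 30 in untreated replicate 2, against 35 and 30 with dTAG13. Rbm15b had 43 and 47 against 31 and 39, both treated libraries being lower.

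**Figure D1:**
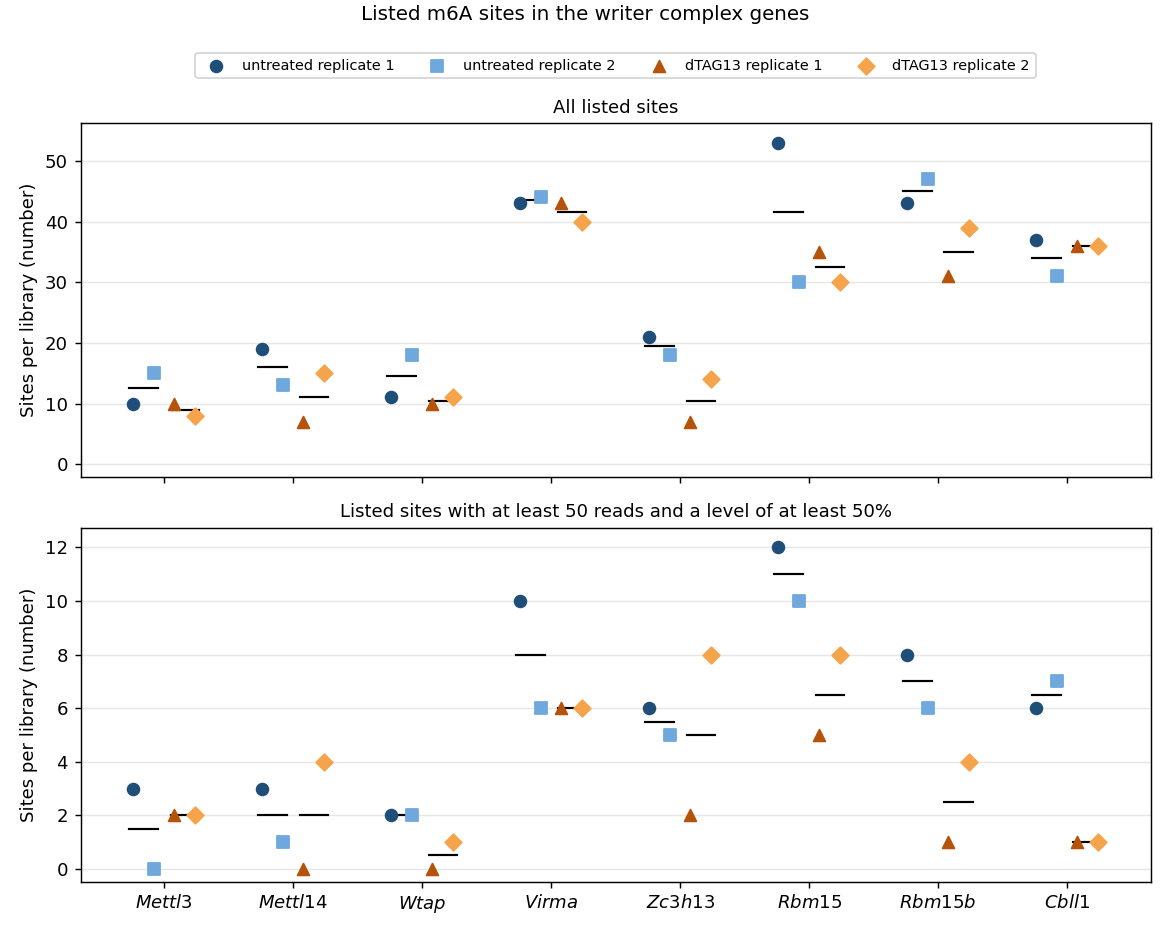
Number of listed m6A sites per library (vertical axis) in each writer complex gene, over all sites in the upper panel and over sites with at least 50 reads and a level of at least 50% in the lower panel, with 1 point per library and a line at the mean of each group of 2. In the upper panel Zc3h13 (21 and 18 against 7 and 14) and Rbm15b (43 and 47 against 31 and 39) have both dTAG13 points below both untreated points, and in the lower panel Wtap, Rbm15, Rbm15b and Cbll1 do.

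The test compared the number of sites per gene with edgeR's quasi-likelihood method, with Benjamini-Hochberg adjustment over 12449 genes. Of these, 805 (6.47%) passed an adjusted p of 0.05, 800 of them lower with dTAG13 and 5 higher, but 0 passed when any 1 of the 4 libraries was left out. Of the 8 members, 0 passed, and 0 had an unadjusted p under 0.05, against 24.3% of all genes. The median log2 change was -0.41 over the members and -0.51 over all genes. The largest was that of Zc3h13, from 19.5 ± 2.12 to 10.5 ± 4.95 sites (SD, n = 2), a log2 change of -0.89 with an adjusted p of 0.226 in edgeR. Leaving out 1 library moved it between -1.46 (without dTAG13 replicate 2) and -0.47 (without dTAG13 replicate 1). Mettl14 followed at -0.54 (adjusted p = 0.505, edgeR), with -1.18 to -0.092 when 1 library was left out, those of dTAG13 replicates 2 and 1. Mettl3 was at -0.47 (adjusted p = 0.603, edgeR), with -0.73 without untreated replicate 1 and -0.15 without untreated replicate 2. Rbm15b, at -0.36, had an adjusted p of 0.403. Both dTAG13 libraries were below both untreated ones in 2 of the 8 members, and in 46.4% of all genes. When sites were counted relative to the total sites of each library, the median of all genes moved to -0.01. That scaling left 15 genes called lower and 35 higher, and the signs of Mettl3, Wtap, Virma, Rbm15 and Rbm15b turned positive, up to 0.44 for Virma. Under it Zc3h13 was at -0.39, and Cbll1 had the largest member value, 0.59, with an unadjusted p of 0.0393 and an adjusted p of 0.412 in edgeR, and with TMM scaling it was at 0.58 (adjusted p = 0.398, edgeR).

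The median level over the members' listed sites was 38.4% and 40.0% in the untreated libraries against 32.1% and 33.9% in the treated ones, on average 39.2% ± 1.14 and 33.0% ± 1.31 (SD, n = 2). Over all genes it was 27.6% ± 0.842 without dTAG13 and 29.3% ± 0.0106 with it, and the difference between members and all genes was not tested. The pooled value rests most on the genes with the most sites. By gene, both dTAG13 medians lay below both untreated medians in Virma, from 40.8% ± 1.17 to 34.2% ± 2.75, and in Cbll1, from 33.3% ± 1.02 to 26.7% ± 1.41 (SD, n = 2). They lay above in Zc3h13, from 38.2% ± 7.48 to 71.4% ± 4.50, and in Mettl3, where the medians of 26.0% and 19.0% over 10 and 15 sites stood against 45.1% and 86.2% over 10 and 8 sites. In the other 4 genes the groups overlapped. The share of all genes with either order of medians was not counted, so these orders have no background here. Medians were taken over whatever sites each library listed, which were mostly not the same positions. With reads summed over each library's listed sites, the Zc3h13 level was 48.2% ± 5.81 untreated and 43.8% ± 1.18 treated (SD, n = 2), with overlap. On that scale Virma and Cbll1 stayed lower with dTAG13. Both treated libraries were also lower in Wtap (28.1% ± 5.43 against 19.6% ± 3.23), Rbm15 (51.5% ± 15.1 against 36.3% ± 1.09) and Rbm15b (28.1% ± 0.262 against 25.8% ± 0.367, SD, n = 2). Mettl14 overlapped. The share of all genes with this order was not counted either. Mettl3 stayed higher, at 33.7% ± 12.3 against 49.8% ± 5.64 (SD, n = 2). Its treated libraries had 3 and 4 sites at 90% or more, 0 of them with at least 50 reads.

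Sites with at least 50 reads and a level of at least 50% were then counted, limits chosen after the values were seen. Such sites were fewer in both dTAG13 libraries than in both untreated ones in 4 of the 8 genes. Cbll1 had 6 and 7 such sites untreated against 1 and 1 treated. Rbm15 had 12 and 10 against 5 and 8, and Rbm15b had 8 and 6 against 1 and 4. Wtap had 2 and 2 against 0 and 1. In these 4 genes both treated libraries lay below both untreated ones, as in 13.2% of the 13721 genes with at least 1 such site, a base that includes genes with too few sites to show this order. Among the 4456 genes with at least 10 such sites over the 4 libraries the share was 19.8%, and 3 of the 5 members there (Rbm15, Rbm15b and Cbll1) showed it. The counts overlapped in Mettl3 (3 and 0 against 2 and 2), Mettl14 (3 and 1 against 0 and 4), Virma (10 and 6 against 6 and 6) and Zc3h13 (6 and 5 against 2 and 8). Of all member sites with at least 50 reads, 29.2% and 25.7% had such a level in the untreated libraries, as did 14.7% and 24.5% in the treated ones. Over all genes these shares were 15.7% and 15% against 16.1% and 19.6%. In edgeR, Cbll1 went from 6.5 ± 0.707 to 1 ± 0 such sites (SD, n = 2), a log2 change of -2.56. Its unadjusted p was 0.0132 and its adjusted p 0.922 in edgeR, and of the 5 members tested it was the 1 with an unadjusted p under 0.05. The test called 0 of 4456 genes (0%), with 213 (4.78%) at an unadjusted p under 0.05.

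Most positions were seen once. Of the 756 member sites, 694 (91.8%) had an entry in a single table, 55 in 2 tables, 7 in 3 and 0 in all 4. Over all genes 91.4% were listed in 1 library. Both untreated libraries listed 27 member sites, and both dTAG13 libraries listed 9. As shares of the sites, these were 3.57% and 1.19% for the members and 3.01% and 1.34% over all genes. Of the 27 sites shared by the untreated pair, 3 (11.1%) were listed in a dTAG13 library, against 20.0% of 25086 such sites over all genes. Of the 9 shared by the dTAG13 pair, 4 (44.4%) were listed in an untreated library, against 31.2% of 11156.

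The 27 sites of the untreated pair had a median level of 37.8%, from 11.8% to 99.6%, and 11 of them reached 50%. The 9 sites of the dTAG13 pair had a median of 19.7%, from 12.4% to 56.1%, and 1 reached 50%. Replicates did not always agree on a level: within the untreated pair the median gap was 11.1 percentage points and the largest 72.7.

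**Figure D2:**
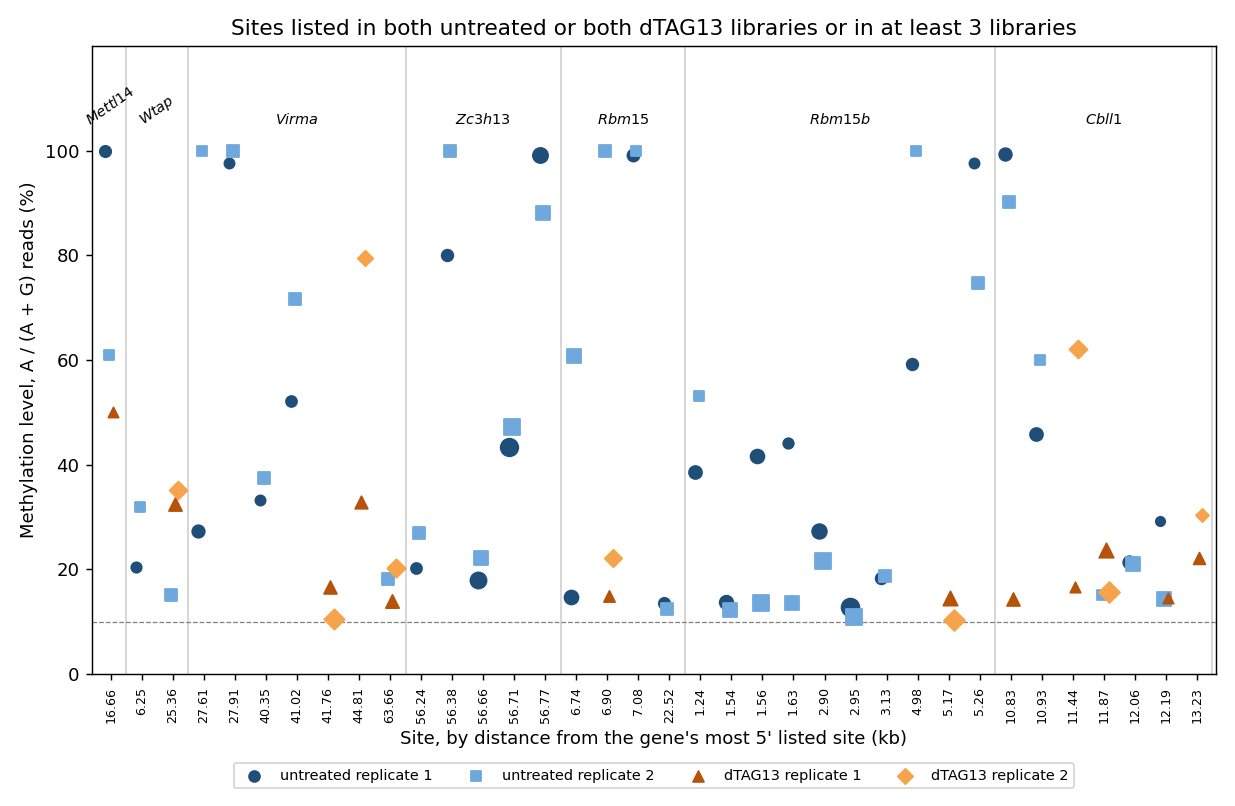
Level in percent of the 27 writer complex sites listed in both untreated libraries and the 9 listed in both dTAG13 libraries, with 1 point per library that lists the site, larger for more reads, sites ordered by gene and by distance in kb from the gene's most upstream listed site, and a dashed line at the 10% listing limit. Means of the untreated pair reach 99.6% and those of the dTAG13 pair 56.1%, while 3 of the 27 sites also carry a dTAG13 point and 4 of the 9 an untreated one.

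Mettl3 had 0 sites listed in both libraries of either group. Its only site in more than 1 library, chr14:52535532 on the minus strand, was at 53.8% (57 of 106 reads) in untreated replicate 1 and at 75.9% (44 of 58 reads) in dTAG13 replicate 2. Its highest site with at least 50 reads was chr14:52532537, at 78.4% (40 of 51 reads) in untreated replicate 1. The transcript of the degron-tagged subunit thus gave no position listed in both libraries of a group.

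Mettl14 had 1 shared site, chr3:123162897 on the minus strand. It was at 100% (82 of 82 reads) and 61.0% (25 of 41 reads) without dTAG13 and at 50% (21 of 42 reads) in dTAG13 replicate 1. The treated value lay below both untreated values, nearer to the second than the untreated values were to each other. Another site with 50 reads or more, chr3:123169832, was also at 100% (92 of 92 reads) and listed in dTAG13 replicate 2 alone.

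In Wtap, the adaptor gene, 1 site was shared by the untreated pair, chr17:13204825 on the minus strand, at 20.4% (10 of 49 reads) and 31.8% (7 of 22 reads). Another site, chr17:13185715, was shared by the dTAG13 pair, at 32.4% (58 of 179 reads) and 35.1% (53 of 151 reads), a mean of 33.8% ± 1.91 (SD, n = 2). It was at 15.1% (13 of 86 reads) in untreated replicate 2 and not listed in untreated replicate 1. Here the treated values were the higher ones. Among Wtap sites with at least 50 reads, chr17:13191576 was highest, at 100% (51 of 51 reads) in dTAG13 replicate 2.

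Virma had 4 sites shared by the untreated pair, all on the plus strand of chromosome 4. Position 11513976 was nearly fully methylated, at 97.6% (41 of 42 reads) and 100% (118 of 118 reads). Position 11527085 was at 52.2% (35 of 67 reads) and 71.6% (106 of 148 reads). Position 11526418 was at 33.3% and 37.5%, whereas at 11513670 the replicates gave 27.3% (38 of 139 reads) and 100% (19 of 19 reads), which gap is the largest among the shared sites. The dTAG13 libraries listed 0 of these 4 sites. Over all genes 20.0% of such sites were listed in a dTAG13 library, which is the background for the like counts of Zc3h13, Rbm15 and Rbm15b below.

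The dTAG13 pair shared 3 Virma sites. Position 11527827 was at 16.7% (27 of 162 reads) and 10.6% (31 of 293 reads). Position 11530874 was at 32.9% (47 of 143 reads) and 79.4% (54 of 68 reads) and was the single site of the dTAG13 pair with a mean above 50%. The third, 11549721, was at 13.9% (26 of 187 reads) and 20.2% (37 of 183 reads) with dTAG13 and at 18.2% (22 of 121 reads) in untreated replicate 2, so its levels overlapped between groups.

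Zc3h13 had 5 sites shared by the untreated pair on the plus strand of chromosome 14, all between 56.2 and 56.8 kb from its most upstream listed site, and the dTAG13 libraries listed 0 of them. Position 75581791 was at 99.2% (369 of 372 reads) and 88.1% (267 of 303 reads), a mean of 93.7% ± 7.83 (SD, n = 2). Position 75581399 was at 80% (76 of 95 reads) and 100% (109 of 109 reads). The deepest, 75581730, was at 43.4% (326 of 752 reads) and 47.1% (252 of 535 reads), a mean of 45.2% ± 2.65 (SD, n = 2). Lower levels were found at 75581682 (18.1% of 504 and 22.1% of 231 reads) and at 75581263 (20.3% and 26.9%). In this stretch the untreated libraries listed 11 and 11 sites and the dTAG13 libraries 3 and 7. One of the latter, 75581317, had the most reads of the gene's 4 values at 100% with at least 50 reads, at 125 of 125 reads in dTAG13 replicate 2. Of these 4 values, 1 was untreated and 3 treated.

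Cbll1 had 4 sites shared by the untreated pair on the minus strand of chromosome 12. The highest, 31538212, was at 99.3% (149 of 150 reads) and 90.1% (91 of 101 reads), a mean of 94.7% ± 6.53 (SD, n = 2), and at 14.4% (24 of 167 reads) in dTAG13 replicate 1. Position 31538114 was at 45.9% (79 of 172 reads) and 60% (15 of 25 reads) and not listed with dTAG13. Position 31536980 was closely matched between untreated replicates, at 21.4% (31 of 145 reads) and 21.0% (38 of 181 reads), and not listed with dTAG13. The fourth, 31536847, was at 29.2% (7 of 24 reads) and 14.3% (44 A reads), with 14.6% (7 of 48 reads) in dTAG13 replicate 1.

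The dTAG13 pair shared 3 other Cbll1 sites. Position 31537170 was at 23.6% (70 of 296 reads) and 15.7% (54 of 343 reads), against 15.2% (10 of 66 reads) in untreated replicate 2. Position 31537601 was at 16.7% (8 of 48 reads) and 62.1% (100 of 161 reads), and 31535809 at 22.2% (22 of 99 reads) and 30.4% (7 of 23 reads), neither listed without dTAG13. Of the 124 Cbll1 sites, 119 lay in 1 stretch between 10.7 and 14.0 kb from the most upstream site. Cbll1 had 2 values at 100% with at least 50 reads, both untreated, and the deeper was 31536137, at 127 of 127 reads in untreated replicate 2 alone.

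Rbm15 had 3 sites shared by the untreated pair on the minus strand of chromosome 3, and the dTAG13 libraries listed 0 of them. Position 107233127 was at 99.2% (119 of 120 reads) and 100% (51 of 51 reads), a mean of 99.6% ± 0.589 (SD, n = 2). Position 107233468 was at 14.7% (37 of 251 reads) and 60.8% (155 of 255 reads), and 107217682 at 13.6% and 12.3% of 81 reads each. A site shared by the dTAG13 pair, 107233307, was at 14.9% (11 of 74 reads) and 22.2% (30 of 135 reads), a mean of 18.5% ± 5.20 (SD, n = 2). In untreated replicate 2 the same position was at 100% (110 of 110 reads).

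Along Rbm15 the sites fell into 3 stretches separated by gaps over 3 kb, a division made after the data were seen and given as a description. In the most upstream stretch, of 2.66 kb, the untreated libraries listed 10 and 1 sites and the treated ones 18 and 18. In the middle stretch the counts were 9 and 8 against 12 and 6, with a median level of 94.6% over the untreated sites and 20.8% over the treated ones. In the most downstream stretch 34 and 21 untreated sites stood against 5 and 6 treated ones. Its median level was 45.2% over the untreated and 100% over the treated sites, with a median of 62 and 36 reads per site. It held chr3:107213624, at 100% (128 of 128 reads) in dTAG13 replicate 1. This was the deepest of 8 Rbm15 values at 100% with at least 50 reads, of which 6 were untreated and 2 treated. Counts of Rbm15 over the whole gene therefore join stretches whose counts differed in opposite directions. How common such a pattern is over all genes was not counted.

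**Figure D3:**
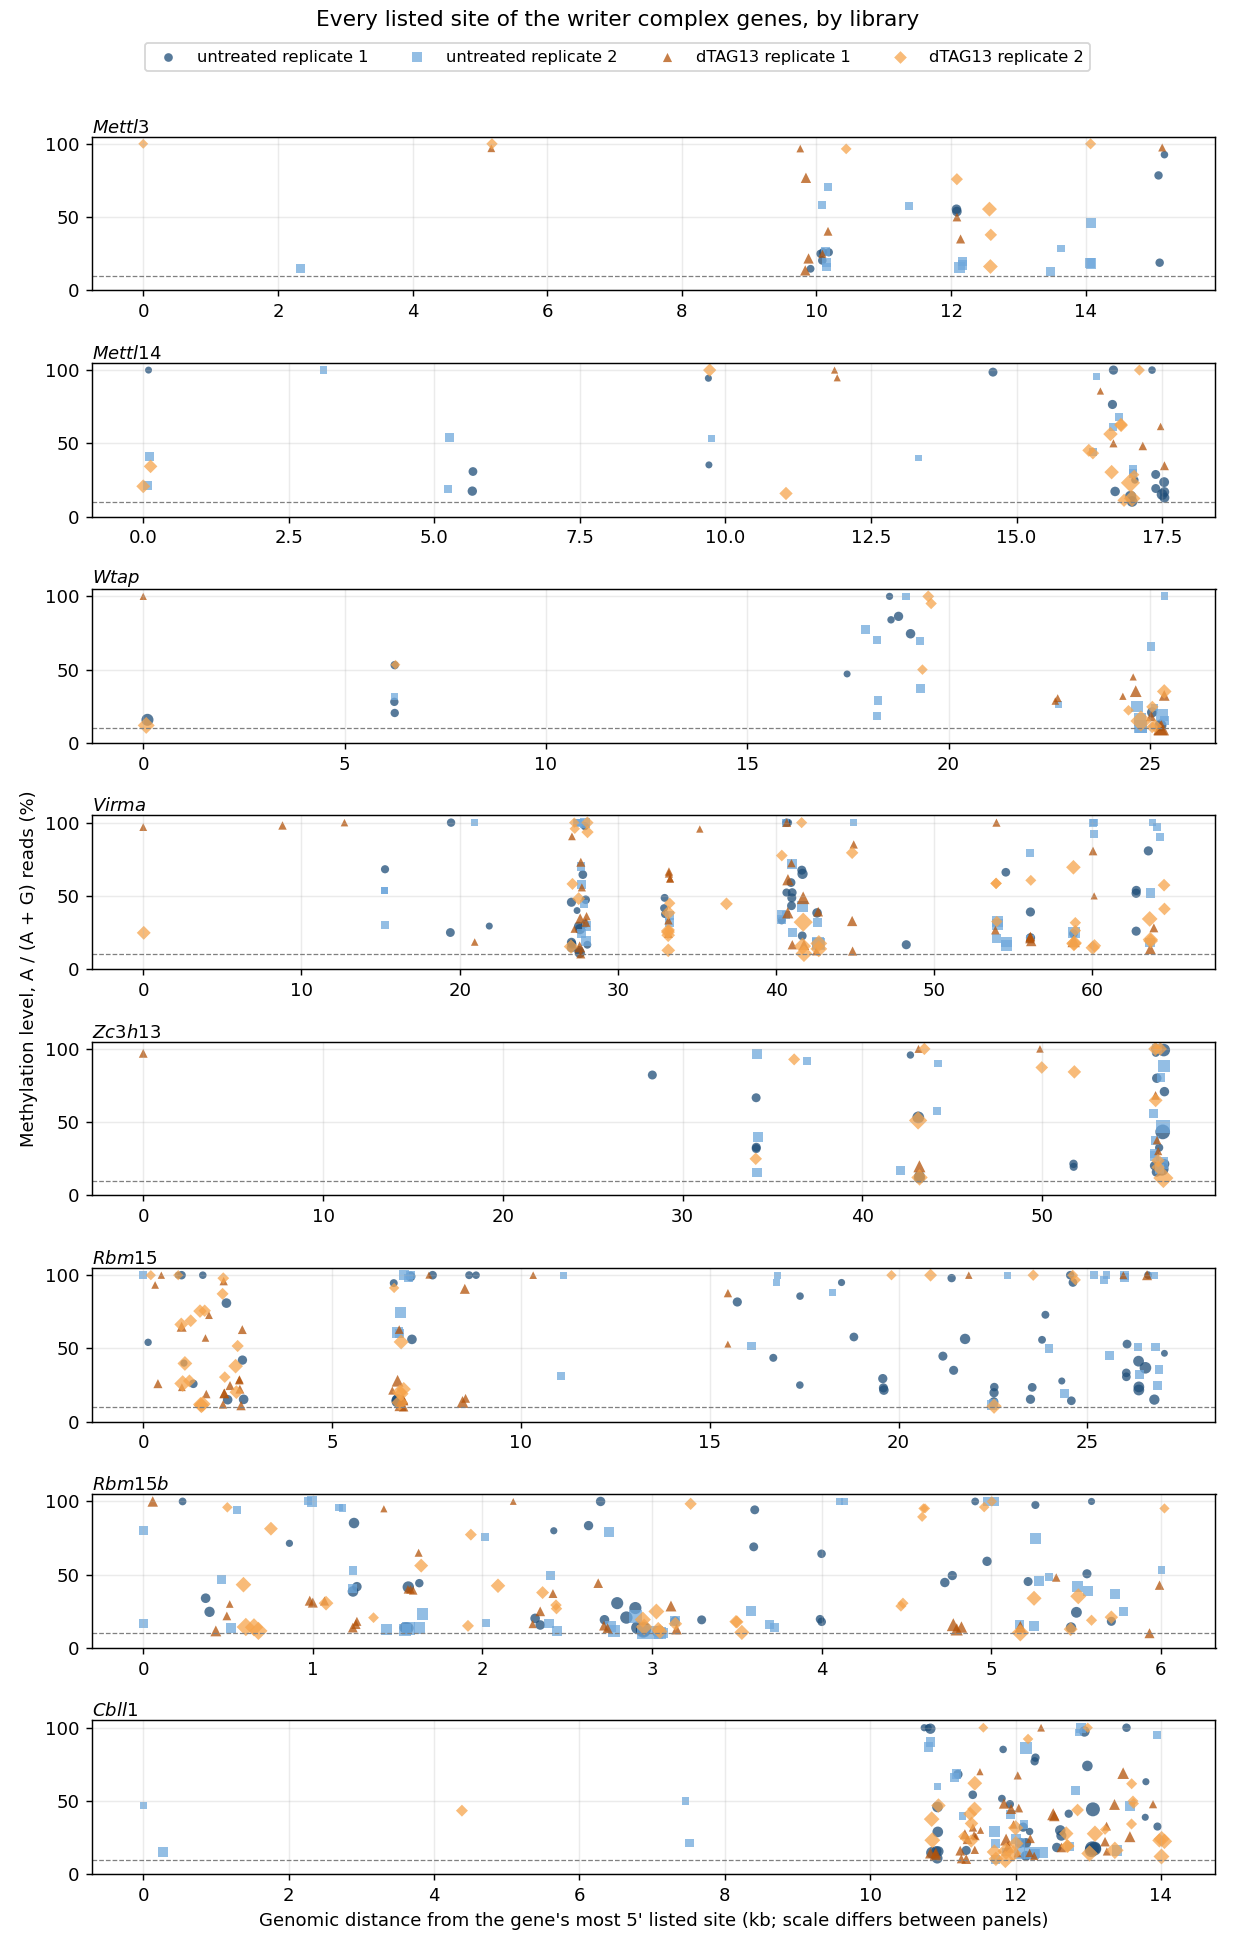
Every listed site of each writer complex gene, by distance in kb from the most upstream listed site (horizontal axis, scaled per gene) and level in percent (vertical axis), with colour and shape by library, larger points for more reads and a dashed line at the 10% listing limit. In Rbm15 the most upstream stretch holds 18 and 18 treated against 10 and 1 untreated sites and the most downstream stretch 5 and 6 against 34 and 21, whereas 119 of 124 Cbll1 sites lie between 10.7 and 14.0 kb.

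Rbm15b had the most sites shared by the untreated pair, 9 on the minus strand of chromosome 9. The dTAG13 libraries listed 0 of them, against 20.0% of such sites over all genes. Position 106758998 was at 97.6% (41 of 42 reads) and 74.7% (112 of 150 reads), and 106759283 at 59.1% (55 of 93 reads) and 100% (46 of 46 reads). Position 106763022 was at 38.6% (66 of 171 reads) and 53.1% (34 of 64 reads). These 3 were the highest of the gene's shared sites.

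At 4 Rbm15b positions the untreated replicates were close. These were 106761124 at 18.4% (18 of 98 reads) and 18.6% (22 of 118 reads), 106761357 at 27.2% (88 of 323 reads) and 21.5% (109 of 506 reads), 106761309 at 12.8% (104 of 810 reads) and 10.9% (52 of 479 reads), and 106762716 at 13.8% and 12.2%. They differed more at 106762696, with 41.6% (99 of 238 reads) and 13.5% (57 of 421 reads), and at 106762631, with 44.2% (23 of 52 reads) and 13.5% (34 of 252 reads). The dTAG13 pair shared 1 site, 106759087, at 14.4% (40 of 277 reads) and 10.4% (35 of 338 reads), not listed without dTAG13. Of 3 Rbm15b values at 100% with at least 50 reads, 2 were untreated, and the deepest was 106764203, at 160 of 160 reads in dTAG13 replicate 1 alone.

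Coverage near an unlisted site could be read where a neighbouring site was listed. Of the 27 sites of the untreated pair, 24 were not listed in dTAG13 replicate 1, and 11 of these had another listed site of that library within 25 nt, 10 of them with at least 50 reads. In dTAG13 replicate 2 all 27 were not listed, and 13 had such a neighbour, 8 with at least 50 reads. At those positions the region was covered in the treated library, whereas at the others coverage is not known from the tables. In the reverse direction neighbours were rare: of the 9 sites of the dTAG13 pair, 9 were not listed in untreated replicate 1, 0 of them with a neighbour, and 5 were not listed in untreated replicate 2, 1 of them with one.

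Recovery of well covered sites in a treated library was set beside recovery in the other untreated replicate. Untreated replicate 1 had 171 member sites of 50 or more reads, of which untreated replicate 2 listed 22 or 12.9% (95% interval by Wilson's method, 8.65 to 18.7%). In dTAG13 replicates 1 and 2, 11 or 6.43% (3.63 to 11.2%) and 8 or 4.68% (2.39 to 8.96%) were. From the 144 such sites of untreated replicate 2, 15.3% (10.3 to 22.0%) were listed in untreated replicate 1 and 5.56% (2.84 to 10.6%) in each dTAG13 library. The treated shares were lower in all 4 pairings, at 0.364 to 0.5 of the untreated share. The ratio of the averaged shares was 0.395, against 0.558 over all genes. Every treated interval overlapped the untreated one at its end, and the difference from all genes was not tested. Starting from the dTAG13 libraries there was no such excess between replicates. Their 116 and 139 well covered member sites were listed in the other dTAG13 library at 6.90% (3.54 to 13.02%) and 5.76% (2.94 to 10.9%), and in the untreated libraries at 5.17% to 6.90%. With untreated sites of at least 50% level the ratio was 0.219 for the members and 0.278 for all genes.

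Levels at single sites could hardly be tested. The quasi-binomial logistic model required a site in all 4 libraries with at least 20 reads, which 2321 sites met, 53 of them (2.28%) past an adjusted p of 0.05. None of these 2321 belonged to the 8 genes. On simulated levels with 200 of 2321 sites changed by 40 to 50 points, the model recovered 31.5% of the changed sites. That simulation had the same spread setting for all sites. With sites listed in at least 3 libraries, 9092 were tested, 0 passed (0%), and 1072 (11.8%) had an unadjusted p under 0.05. Of the 7 member sites among them 2 had an unadjusted p under 0.05, each with 3 libraries and 1 library alone in a group. They were Rbm15 107233307, lower by 80.4 points with dTAG13 at an adjusted p of 0.189 in that logistic model across all sites, and Cbll1 31538212, lower by 81.2 points at an adjusted p of 0.241. Wtap 13185715 was higher by 18.5 points (adjusted p = 0.501 in the same model). The sites in Mettl14, Virma and the other 2 in Cbll1 had adjusted p-values of 0.821 to 0.990.

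Gene coverage, the value the tables give once per gene and library, stood for transcript abundance. Its scaling by length is not given, so genes were not ranked by it, and in such bulk samples fewer cells of a type and less RNA per cell cannot be told apart. Mettl3 coverage was 60.7 and 59.4 untreated against 64.4 and 61.8 treated. The degron acts on the protein, so this RNA value does not check the degradation. The median over 12520 genes present in every table was 99.2 and 103.2 untreated against 82.4 and 110.9 treated, and changes were therefore tested relative to that median.

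Wtap coverage was 144 and 104.5 untreated against 240.1 and 193 treated. Relative to the library median it was 1.45 and 1.01 against 2.91 and 1.74, so both treated libraries were higher. Limma gave a log2 change of 0.89 ± 0.33 (SE), an unadjusted p of 0.0360 and an adjusted p of 0.373, over alternatives 0.319 to 0.772. The change stayed positive without any single library, from 0.52 to 1.26. Relative coverage was also higher in both treated libraries for Virma (0.625 and 0.808 against 1.00 and 1.01), Rbm15 (0.783 and 0.596 against 1.04 and 0.807) and Cbll1 (0.969 and 1.05 against 1.38 and 1.24). Their log2 changes were 0.50 ± 0.22, 0.42 ± 0.25 and 0.37 ± 0.20 (SE), with limma's adjusted p-values of 0.406, 0.498 and 0.471. Leaving out 1 library lowered Virma to 0.32 (without untreated replicate 1), and Rbm15 to 0.22 and 0.24 (without untreated replicate 2 and without dTAG13 replicate 1).

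In the other 4 genes the groups overlapped on this scale, with log2 changes of 0.15 for Mettl3, 0.11 for Rbm15b, -0.05 for Zc3h13 and -0.13 for Mettl14. The signs of these 4 changed when 1 library was left out. Mettl14 was split between treated replicates, with a coverage of 53.4 and 112 against 93.4 and 86.1. Limma called 0 of 12520 genes (0%) and 0 of the 8 members. At an unadjusted p under 0.05 it had 1 member, against 12.7% of all genes. Relative coverage lay above in both treated libraries for 4 of the 8 members and 17% of all genes.

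**Figure D4:**
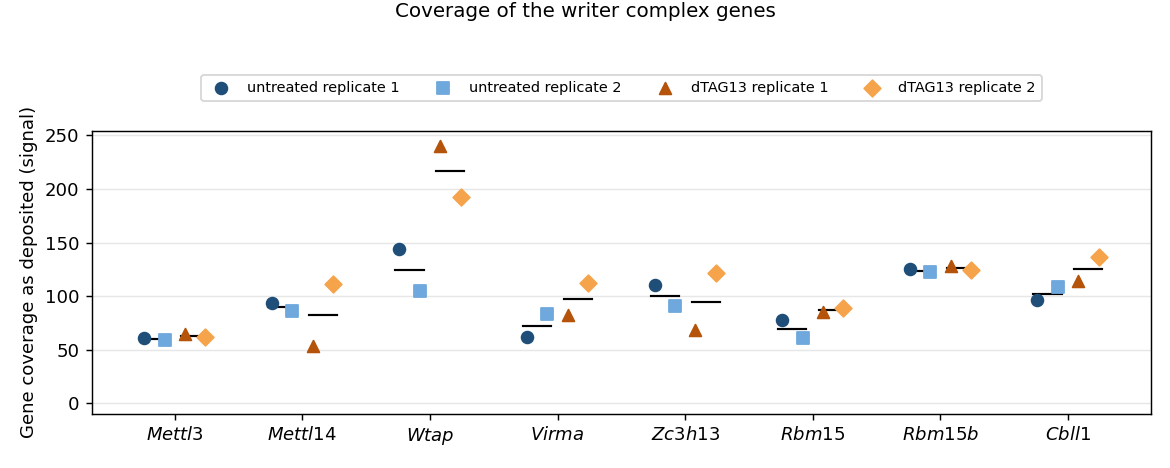
Gene coverage of each writer complex gene as deposited, not divided by the library median, with 1 point per library and a line at the mean of each group of 2. Wtap (144 and 104.5 against 240.1 and 193), Rbm15, Cbll1 and, by little, Mettl3 have both dTAG13 points above both untreated points, an order found in 10.1% of all genes on this scale.

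The tables also give 1 conversion rate per gene and library, here subtracted from 100% and called the unconverted share. Whether the rate was taken over all adenosines of the gene is not given in the sources used here, so the share is read only as 100% minus the deposited rate. In Cbll1 this share was 5.51% and 3.77% untreated and 2.55% and 2.39% treated, from 4.64% ± 1.23 to 2.47% ± 0.115 (SD, n = 2). Zc3h13 went from 6.05% and 4.97% to 2.46% and 4.17%, and Virma from 4.17% and 4.90% to 3.37% and 2.29%. In these 3 genes both treated libraries were lower.

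The recruiters differed in the same way, Rbm15 from 3.98% and 4.68% to 2.92% and 3.18% and Rbm15b from 5.96% and 4.77% to 3.03% and 4.69%, the last by little. Mettl3 went the other way, from 2.56% and 2.60% to 3.66% and 2.67%, both treated libraries being higher. Wtap (3.25% and 2.28% against 2.15% and 2.42%) and Mettl14 (3.61% and 4.52% against 5.76% and 2.50%) overlapped. The median over all genes went from 4.15% and 3.78% to 3.13% and 3.26%. A lower share was therefore common: both treated libraries lay below both untreated ones in 5 of the 8 members and in 40.9% of all genes. The opposite order, that of Mettl3, was found in 6.05% of all genes.

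**Figure D5:**
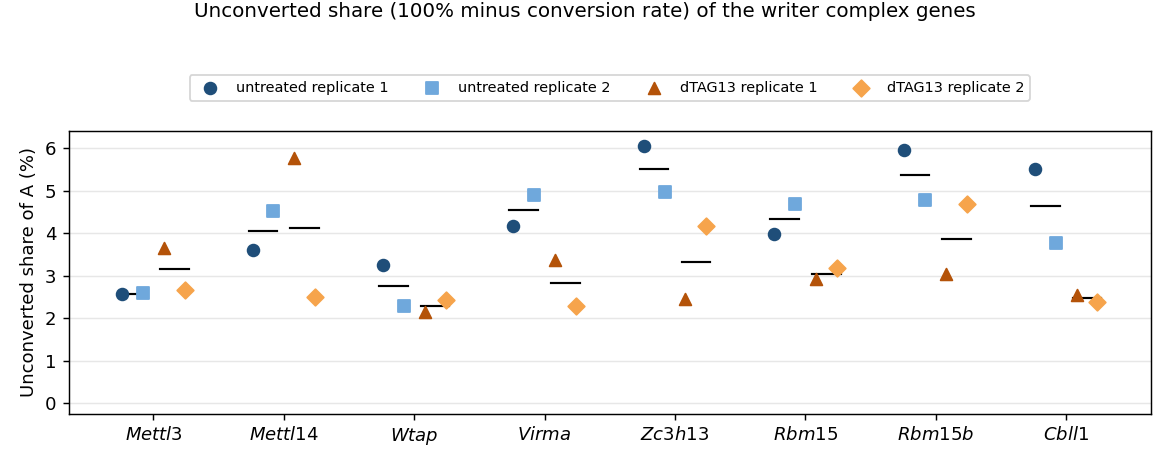
Unconverted share of each writer complex gene, in percent (100% minus the deposited conversion rate), with 1 point per library and a line at the mean of each group of 2. Virma, Zc3h13, Rbm15, Rbm15b and Cbll1 have both dTAG13 points below both untreated points, and Mettl3 is the only gene of the 8 with both above.

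On the log2 odds of conversion, limma called 0 of 12520 genes (0%) and 0 members. At an unadjusted p under 0.05 it had 1 of the 8, Cbll1, against 12.3% of all genes. Cbll1 was higher by 0.92 ± 0.32 (SE) in log2 odds and did not pass the adjustment (adjusted p = 0.391 in limma, 0.391 to 0.881 over alternatives). The members' median change was 0.52 and that of all genes 0.30. Zc3h13 was at 0.81 ± 0.37 and Virma at 0.73 ± 0.33 (SE), with limma's adjusted p-values of 0.447 and 0.437. Without dTAG13 replicate 1 Zc3h13 was at 0.42, and without dTAG13 replicate 2 Virma was at 0.44. Mettl3 was at -0.28 ± 0.30 (SE; adjusted p = 0.714, limma), and at -0.049 without dTAG13 replicate 1.

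Beside the writer complex, a list of 18 other m6A pathway genes was tested in the same fits: other methyltransferases and the SAM synthetase gene Mat2a, the erasers Fto and Alkbh5, and YTH, IGF2BP, hnRNP and FMR1 readers. In listed sites 1 of 18 passed edgeR's test. It was Zcchc4, an rRNA m6A methyltransferase gene, with 16 and 15 untreated sites against 3 and 3 treated ones, a log2 change of -2.32 (adjusted p = 0.0237, edgeR). The share over all genes was 6.47%, and without any 1 of the 4 libraries 0 genes passed. With total sites as library sizes, TMM, DESeq2, no robust moderation or only sites of at least 50 reads, 0 of the 18 passed for listed sites. With levels of at least 20% or with the replicate block 1 passed, and without a minimum number of sites 2 passed. In coverage and in conversion 0 of 18 passed. At an unadjusted p under 0.05 limma had 1 gene higher in coverage, Ythdf1 (226 and 212 against 304 and 418), and 3 lower, Hnrnpc, Igf2bp1 and Igf2bp2, against 4.4% higher and 8.34% lower over all genes. With the replicate block 0 of the 10 sites of this list that all 4 libraries listed passed the quasi-binomial test. Without the block 1 of them passed, against 53 (2.28%) of all 2321 sites tested. It was chr3:16258975 in the reader gene Ythdf3, at 100% and 100% (of 35 and 27 reads) without dTAG13 and at 23.9% and 15.6% (of 71 and 90 reads) with it (adjusted p = 0.0232 in the logistic model across sites), and 0 sites passed without any 1 library.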

How the data were processed

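Per the labels, GLORI was run on polyA RNA of 4 libraries, 2 without and 2 with dTAG13. The authors deposited 1 table per library. Per the file headers, deposited counts are A and G reads and A reads per site, the deposited fraction is their ratio (equal to A over A and G reads at 100% of sites), the deposited signal is coverage per gene, the deposited conversion rate per gene is a fraction too, printed here in percent, and the authors' p-values are per site. Names of the tables record the second mate, adapter and molecular identifier trimming. Aligner and caller are not given in the sources used here. The submitters' processing notes name mm10.

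All fits ran over whole tables and only rows of the named genes are printed. Sites per gene were tested with edgeR 4.0.16 (robust quasi-likelihood, equal library sizes, at least 10 sites over the 4 libraries), coverage and conversion with limma 3.58.1 in R 4.3.3, and levels with a quasi-binomial logistic model of reads, moderated by squeezeVar. Tests were two-sided, with Benjamini-Hochberg adjustment and a threshold of 0.05. On simulated data with 200 genes changed 3-fold among 12045, edgeR recovered 63% with robust moderation and 0% without, which is why it was used. The simulated data had the same spread setting for all genes and no shift of all genes together. The changed genes were drawn from genes with more sites on average than Mettl3, Mettl14, Wtap or Zc3h13 had. The 63% therefore does not describe those members. Named were all 8 genes, sites listed in at least 3 libraries or in both libraries of a group, and the highest site with at least 50 reads per gene, ties broken by reads. Members and lists were chosen with earlier results of these data known. Other minimums, scalings, DESeq2 1.42.0, Fisher's exact test and leaving out each library were alternatives.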

Additional observations from a re-analysis of the deposited data

How the results depend on the processing

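The limits are few libraries and shallow overlap: 2 libraries a group, 0 member sites listed in all 4, and tables that hold called sites only. Over the 8 genes, 212 of 237 alternative values kept their direction and their side of the threshold, 25 changed direction and 0 crossed the threshold. Not all of them could differ. The minimum mean coverage of 15 kept all 12520 genes. The replicate block left the coverage and conversion changes as they were, and dropping robust moderation did so for listed sites. Counted as kept were also a Cbll1 change of 0 and DESeq2 values without an adjusted p for Mettl3, Mettl14, Wtap and Zc3h13. The number of genes called for listed sites (805) was 843 without a minimum, 50 with total sites as library sizes, 66 with TMM, 212 with sites of at least 50 reads and 437 with levels of at least 20%. It was 0 with DESeq2 (1271 at an unadjusted p under 0.05), 0 without robust moderation (2573), 0 with sites of at least 50 reads and 50% level (213) and 0 to 0 with 1 library left out (1120 to 1783); robust moderation and the last site limit were compared after the data were seen. The causes were not tested. With total sites as sizes the log2 changes were 0.039 for Mettl3, 0.043 for Wtap, 0.44 for Virma, 0.16 for Rbm15 and 0.14 for Rbm15b, and with TMM 0.035, 0.040, 0.44, 0.15 and 0.14. Virma was at 0.026 with sites of at least 50 reads, Mettl3 at 0.19 with levels of at least 20%, and Cbll1 at -2.56 with sites of at least 50 reads and 50% level. Without 1 library Rbm15 ranged from -0.70 to 0.12 and Cbll1 from -0.039 to 0.21. Coverage called 15 genes without centring (6 higher, 9 lower) against 0. Its changes without 1 library ranged from -0.090 to 0.40 for Mettl3, -0.45 to 0.19 for Mettl14, -0.25 to 0.15 for Zc3h13 and -0.13 to 0.35 for Rbm15b. Conversion called 0 genes under every alternative run. Centring turned Mettl14 to -0.23 and Wtap to -0.060, the percent scale gave Mettl14 -0.068 points, and without 1 library Mettl14 ranged from -0.54 to 0.72. The site test called 531 sites with Fisher's exact test, 0 of 9092 sites listed in at least 3 libraries, and 0 to 0 with 1 library left out (196 to 217 unadjusted), against 53. The recovery ratio of 0.395 was 0.219 for levels of at least 50%. Replicate numbers are shared between groups, but same-numbered libraries did not deviate together (r of 0.0023 in coverage, 0.0083 in conversion and 0.0047 in listed sites). With the replicate block, 731 genes were called for listed sites, 0 for coverage, 0 for conversion and 0 sites (196 unadjusted).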
